A study of Mus musculus with 5 samples.

Results

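The major urinary protein (Mup) genes were followed in mouse hepatocytes between the fed state and 24 h without food. The 9 members described here (Mup1, Mup2, Mup3, Mup7, Mup9, Mup11, Mup17, Mup20 and Mup21) are 9 of the 22 Mup features among 32285 features measured. They were chosen by name, on values of these same libraries: among them Mup17 had the largest change of lobular zonation by 24 h. Levels and zonation are therefore given as a description, with no test. The cells were hepatocytes from livers of male wild-type (WT) C57BL/6J mice on normal chow. The mice had been trained for 3 days to a 16 h overnight fast and 8 h of daytime feeding, and received 20% sucrose in the drinking water together with food on the day of the experiment. The fed group was killed after 4 h of feeding at clock hour 13 (0 h), and the fasted groups, with food and sucrose water withdrawn, at 4 h (clock hour 17), 8 h (21), 16 h (5) and 24 h (13). Each of the 5 groups is 1 droplet single-cell library, and the number of mice in it is not given in the sources used here. With no replicate library, nothing below measures the spread between mice, and fasting time cannot be told apart from hour of day or from library except that 0 h and 24 h share the clock hour.

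Major urinary proteins are small secreted lipocalins that the liver releases into blood and that pass into urine, where their barrel-shaped fold carries volatile pheromones. Mup20 encodes darcin, a male pheromone protein. Transcription of the family in liver is known to depend on pulses of growth hormone, acting through STAT5, and on androgens and glucocorticoids, which makes most of the genes male-biased. In the liver lobule, blood flows from the portal vein to the central vein, and hepatocytes express different genes along that path. Cyp2f2, a portal cytochrome P450, and Cyp2e1, a central one, were used here to order the cells.

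All 22 Mup features lie in one cluster of 2194 kb on chromosome 4 (mm10/GRCm38, GENCODE M21), chr4:59956804-62150863, and the 9 members are all on the minus strand. Mup17 (ENSMUSG00000096688) spans chr4:61591929-61595871, Mup11 chr4:60658466-60662411 and Mup9 chr4:60418046-60421952. Mup7 spans chr4:60066469-60070475, Mup2 chr4:60135932-60154289 and Mup1 chr4:60498012-60501960. Mup20 (chr4:62050234-62054158), Mup3 (chr4:62083476-62087342) and Mup21 (chr4:62147932-62150863) are neighbours at the far end of the cluster.

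How alike the genes are decides how far their counts can be separated. A window of 90 bases of coding sequence (GRCm38), read on the coding strand 5′ to 3′, follows, with capitals where a member differs from Mup17. It is the window in which the closest members differ most from Mup17, and it begins at base 133 of the Mup17 coding sequence.
Mup17: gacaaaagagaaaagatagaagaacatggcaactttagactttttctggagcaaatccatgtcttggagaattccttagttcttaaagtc
Mup11: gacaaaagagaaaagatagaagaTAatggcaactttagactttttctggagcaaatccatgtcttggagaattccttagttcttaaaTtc
Mup9: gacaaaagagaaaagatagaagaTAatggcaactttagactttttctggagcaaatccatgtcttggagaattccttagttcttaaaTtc
Mup7: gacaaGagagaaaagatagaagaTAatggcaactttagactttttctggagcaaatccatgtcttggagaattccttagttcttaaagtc
Mup20: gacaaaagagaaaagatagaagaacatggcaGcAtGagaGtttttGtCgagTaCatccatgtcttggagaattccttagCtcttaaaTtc
Mup3: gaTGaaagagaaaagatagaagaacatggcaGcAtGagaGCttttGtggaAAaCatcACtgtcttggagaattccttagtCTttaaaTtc

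Even in that window Mup11, Mup9 and Mup7 each differed from Mup17 at 3 of 90 bases, while Mup20 differed at 10 and Mup3 at 16. Over the whole coding sequence Mup17 differed from Mup9 by 4 bases of 540 (99.3% identity) and from Mup3 by 69 substitutions and 22 gapped positions (83.7%). The library chemistry reads the 3′ end of transcripts, so the last 300 bases of the longest coding transcript of each gene were compared with the transcripts of every other Mup gene and pseudogene in the annotation. For Mup3, Mup20 and Mup21, all windows of 90 bases there were found in no other Mup transcript. For Mup17 that held for 88.6% of the windows of 90 bases, for Mup11 for 60.7% and for Mup9 for 49.3%. For Mup7 it held for 1.42%, and for Mup1 and Mup2 for 0 of 211 windows. Windows of 50 bases gave lower shares: 93.6% for Mup3, 92.8% for Mup20, 82.1% for Mup21, 56.6% for Mup17, 38.6% for Mup11 and 25.5% for Mup9. Counts of Mup3, Mup20 and Mup21 are thus the best separated, followed by Mup17, and those of Mup1, Mup2 and Mup7 are uncertain as levels of single genes. How reads that match several genes were counted is not given in the sources used here, and the sum over the members is given for that reason.

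A RefSeq start site was matched for 7 of the 9 members. The 250 bases before it (RefSeq, GRCm38.p6) are shown for the 3 members that were highest in central cells (Mup17, Mup9 and Mup11) and for the portal-high Mup3. The windows are chr4:61595833-61596082, chr4:60421953-60422202, chr4:60662396-60662645 and chr4:62087318-62087567 in that order, all read from the minus strand. Capitals mark runs of at least 20 bases made only of A and C, and the sequence TATATAAG, which was chosen as a search term after these sequences had been seen.
Mup17: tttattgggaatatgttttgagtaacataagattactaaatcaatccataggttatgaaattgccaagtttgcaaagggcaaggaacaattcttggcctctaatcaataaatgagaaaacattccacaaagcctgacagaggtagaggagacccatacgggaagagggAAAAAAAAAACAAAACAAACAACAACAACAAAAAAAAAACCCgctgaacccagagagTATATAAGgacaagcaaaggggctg
Mup9: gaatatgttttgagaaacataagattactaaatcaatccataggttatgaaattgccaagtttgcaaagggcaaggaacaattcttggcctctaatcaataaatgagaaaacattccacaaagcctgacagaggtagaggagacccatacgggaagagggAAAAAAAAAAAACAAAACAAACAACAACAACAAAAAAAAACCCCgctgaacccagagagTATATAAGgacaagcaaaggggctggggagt
Mup11: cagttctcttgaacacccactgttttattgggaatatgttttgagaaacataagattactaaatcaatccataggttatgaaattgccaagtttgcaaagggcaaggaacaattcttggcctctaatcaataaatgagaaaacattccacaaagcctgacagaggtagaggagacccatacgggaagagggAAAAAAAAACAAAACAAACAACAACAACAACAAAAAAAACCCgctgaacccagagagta
Mup3: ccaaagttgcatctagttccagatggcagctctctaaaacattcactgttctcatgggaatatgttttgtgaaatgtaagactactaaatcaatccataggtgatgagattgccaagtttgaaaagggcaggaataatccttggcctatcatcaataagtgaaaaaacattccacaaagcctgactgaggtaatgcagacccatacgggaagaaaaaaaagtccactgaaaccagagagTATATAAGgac

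Mup17 and Mup9 shared 98.4% of 244 aligned bases, and Mup17 and Mup3 shared 87.1% of 170. Runs of A and C of 42 bases (Mup17 and Mup11), 44 bases (Mup9) and 45 bases (Mup2) were present, against at most 8 bases in Mup3 and 7 in Mup21. A run of 42 or more was found in 0.0822% of 32851 promoter windows of the same length. TATATAAG, searched on both strands, was present in Mup2, Mup3, Mup9, Mup17 and Mup21 and in 0.935% of all windows. The annotated starts are not aligned between the genes: the windows of Mup11 and Mup7 are shifted upstream by 23 and 129 bases against that of Mup17, and the Mup7 window ends before the stretch in which the run lies. TATAAA, the STAT motif TTCNNNGAA and the C/EBP motif TTGCNNAA (both strands) were in 0 of the 7 windows, and in 12.4%, 7.02% and 9.56% of all windows, respectively. These matches describe letters in a window and no binding was measured.

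Hepatocytes were barcodes with at least 1000 UMIs (unique molecular identifiers, one per captured transcript molecule), at least 500 genes and 2 to 30% mitochondrial UMIs. This gave 7826, 4567, 2716, 9125 and 4576 cells at 0, 4, 8, 16 and 24 h, in all 28810. Barcodes that met the other limits but had under 2% mitochondrial UMIs numbered 2172, 5345, 576, 234 and 5400 in time order. At 4 h and 24 h they outnumbered the hepatocytes, and the part of this in the levels of these libraries was not tested. The hepatocytes held 33521626 to 45532684 nuclear-encoded UMIs per library, and levels are UMIs per 1000000 of these (CPM). The cells differed in depth, with median UMI counts per cell of 5408, 12097, 15005, 4391 and 8979, and in median mitochondrial share, from 9.79% at 8 h to 19.1% at 4 h. All 7 hepatocyte markers were present in each library, at 93501 to 122807 CPM in sum, and the 9 endothelial markers summed to 12.1 to 80.8 CPM. Barcodes with 3 or more markers of another cell type were 0.263% to 3.21% of the hepatocytes. Of 49740 barcode sequences, 259 occurred in more than 1 library. Intervals in parentheses are 95% intervals (exact Poisson for a level, conditional binomial for a ratio, Clopper-Pearson for a share) and cover counting error only.

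Taken as a sum, the 9 genes made up 3.83% of the nuclear-encoded UMIs of fed hepatocytes. In time order (0, 4, 8, 16 and 24 h) the summed level was 38341, 23890, 32978, 39881 and 18689 CPM. It was thus low at 4 h and 24 h and close to fed at 8 h and 16 h. The log2 ratios to fed were −0.68, −0.22, 0.06 and −1.04 for the 4 fasted libraries in time order, the last with an interval of −1.04 to −1.03. The lower level was found over the range of cells: the median cell held 37825 CPM in the fed and 18062 in the 24 h library, the 10th percentile was 22621.5 and 8454 CPM, and the 90th 55931 and 32796 CPM. All 22 Mup features together gave nearly the same values, 39310 CPM at 0 h and 18998 at 24 h. The other 13 features summed to 970 CPM at 0 h and 308 at 24 h, of which Mup12 held the most at each time (378 CPM at 0 h).

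**Figure D1:**
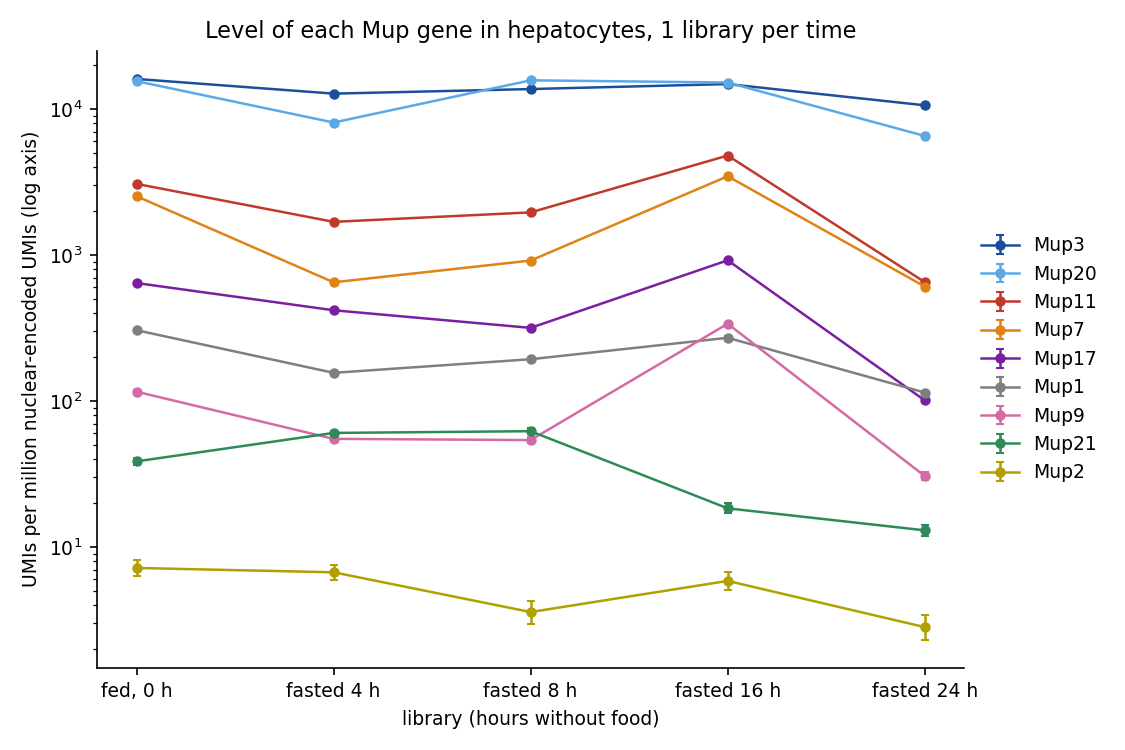
Level of each of the 9 Mup genes in hepatocytes (CPM, log axis) in the 5 libraries, with 95% Poisson intervals, many smaller than the points. Mup3 (10618 to 16089 CPM) and Mup20 (6548 to 15752 CPM) lie above the rest, and Mup7, Mup9, Mup11 and Mup17 are each highest at 16 h and lowest at 24 h.

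Mup3 and Mup20, the best separated and most abundant members, together held 75.4% to 91.9% of the summed UMIs. Mup3 stood at 16089, 12766, 13719, 14845 and 10618 CPM at 0, 4, 8, 16 and 24 h. It varied least: its log2 ratio to fed ran from −0.60 (−0.61 to −0.59) at 24 h to −0.12 at 16 h. Mup20, which encodes darcin, stood at 15541, 8089, 15752.5, 15210 and 6548 CPM. Its level was about the same in the fed, 8 h and 16 h libraries and low in the 4 h and 24 h libraries. At 8 h its log2 ratio to fed was 0.02, and its sign differed between scalings and cell filters (−0.02 to 0.23). The log2 ratios to fed were −0.94 (−0.95 to −0.94) at 4 h and −1.25 (−1.25 to −1.24) at 24 h. Barcodes with endothelial markers, a cell type that should lack the Mup genes, were taken as a measure of free RNA in droplets (background). They held 6112, 8649 (7953 to 9389), 9630, 8818 and 4522 CPM of Mup20 in 311, 10, 20, 72 and 47 barcodes in time order, so that its 4 h level, as CPM, was not above background. After thinning each barcode to 1000 nuclear-encoded UMIs, these held 4.7 Mup20 UMIs on average at 4 h, against 8.28 in hepatocytes. Whether the 4 h level was above background thus depended on the measure. Of the endothelial-marker barcodes, 193, 10, 12, 62 and 36 also passed the limits for hepatocytes, so hepatocyte RNA captured with them cannot be told apart from free RNA. Their median UMI counts were 1794, 4116, 1810.5, 1285.5 and 3823, below those of the hepatocytes, and the part of depth in their CPM was not tested. Not above background, as used below, refers to these CPM and is not read as absence of expression. Barcodes with under 1% mitochondrial UMIs, which were kept out of the hepatocytes, held 3674, 1403, 5989, 4706 and 1347 CPM of Mup20, below the hepatocytes of each library. Mup3 led the family at 0, 4 and 24 h and Mup20 at 8 and 16 h.

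Mup11, Mup7, Mup17 and Mup9, close copies of each other, followed another time course, highest at 16 h and lowest at 24 h. Mup11 was at 3073, 1688, 1960, 4805 and 653 CPM in time order. Mup7 was at 2528, 650, 917, 3467 and 608 CPM. Mup17 was at 643, 418, 317, 920 and 101 CPM. From 16 h to 24 h these 3 differed by more than Mup3 and Mup20 did. At 24 h their log2 ratios to fed were −2.24 (−2.26 to −2.22) for Mup11, −2.06 (−2.08 to −2.03) for Mup7 and −2.67 (−2.72 to −2.62) for Mup17, the last being 6.36-fold lower. The 24 h level of Mup17 was not above the 110 (74.0 to 159) CPM in barcodes with endothelial markers of that library, so its ratio is no exact measure of the difference. Barcodes with under 1% mitochondrial UMIs held less Mup17 at 24 h, 24.9 (22.4 to 27.5) CPM in 4414 barcodes. At 0, 4, 8 and 16 h they held 608, 318, 355 and 930 CPM, so the background of Mup17 depends on the barcodes used. Mup9 was at 116, 55.0, 54.0, 338 and 30.6 CPM, so its 16 h level was 2.92-fold the fed level and its 24 h level 3.78-fold lower than fed. Barcodes with endothelial markers held 15.2 (0.384 to 84.5), 44.9 (9.27 to 131) and 30.5 (13.2 to 60.0) CPM of Mup9 at 4, 8 and 24 h, so that its levels at these times were not above background. In barcodes with under 1% mitochondrial UMIs Mup9 was at 24.7, 27.6 and 7.56 CPM at these times, below the hepatocytes. Mup1 was at 305, 156, 193, 271 and 114 CPM, and its highest library was the fed one. Its 24 h level also lay inside the interval of the endothelial-marker barcodes (64.7 to 145 CPM). Since nearly every window at the 3′ end of Mup1 and Mup7 also occurs in another Mup gene or pseudogene, how their counts divide among genes cannot be told apart.

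The remaining members were scarce. Mup21 was at 38.6, 60.4, 62.1, 18.4 and 13.0 CPM, and was the only one of the 9 whose level was above fed in both the 4 h and the 8 h library. Mup2, with 106 to 305 UMIs per library, was at 7.17, 6.70, 3.58, 5.85 and 2.82 CPM. With 0 to 19 UMIs of Mup21 and 0 to 6 of Mup2 in the endothelial-marker barcodes of a library, neither gene was above the upper limit of background in any library, and no change is read from their levels. Without Mup3 and Mup20 the other 7 members summed to 6710, 3035, 3506, 9826 and 1522 CPM. Their share of the family was 17.5%, 12.7%, 10.6%, 24.6% and 8.15% in time order, so that the make-up of the family differed between libraries as well as its sum.

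Against all genes, a difference from fed was counted when it was at least 2-fold with 50 CPM or more in either library. At 4 h, 2 of the 8 members past that minimum were lower (Mup7 and Mup9) and 0 higher, where 5.97% of the 2948 genes past it were lower and 5.73% higher. At 8 h, 3 of 8 were lower (Mup7, Mup9 and Mup17) and 0 higher, against 11.8% and 7.95% of all genes. At 16 h, 1 of 7 was higher (Mup9) and 0 lower, against 3.31% and 4.04%. At 24 h, 6 of 7 were lower (Mup1, Mup7, Mup9, Mup11, Mup17 and Mup20) and 0 higher, against 10.6% and 6.68% of 2980 genes. Mup3 was the exception at 24 h, and Mup2 and Mup21 were below the minimum in both libraries. The median log2 ratio of the 7 members was −1.92 at 24 h and that of all genes tested −0.03. The members were chosen with these libraries known, so nothing is read from these counts. Mup9 at 4 h and 8 h and Mup17 at 8 h were close to the 2-fold limit (log2 −1.07, −1.10 and −1.02), and with scaling by TMM factors they were −0.92, −0.89 and −0.81.

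Each library's cells were then ordered by the ratio of Cyp2f2 to Cyp2e1 and split into 5 equal bins, called central at the Cyp2e1 end and portal at the Cyp2f2 end. Within the family the members ran in opposite directions along this axis. Mup20 was higher in the portal bin in every library: in time order the portal bin held 18606, 10560.5, 18709, 19196 and 8065 CPM and the central bin 8029, 4008, 8226, 7469 and 3408 CPM. Its portal to central log2 ratio lay between 1.19 (8 h) and 1.40 (4 h). As CPM, the portal level was above that of the endothelial-marker barcodes in all 5 libraries, but the central level was above it at 0 h alone, so the ratios at 4, 8, 16 and 24 h are no exact measure of a gradient. This depended on the measure. After thinning to 1000 UMIs the central bin held 9.23, 7.70 and 3.80 Mup20 UMIs on average at 8, 16 and 24 h, above the 2.55, 5.71 and 3.15 of those barcodes. At 4 h it held 4.36 against 4.7. The portal to central log2 ratio of Mup20 was under 2-fold with 3 bins in place of 5 at 0, 8 and 24 h (0.95, 0.89 and 0.83) and with at most 15% mitochondrial UMIs at 4 h (0.94). It was also under 2-fold at 24 h in cells thinned to 1000 UMIs and binned anew on the thinned counts (0.75). Thinned cells kept in the bins of their full counts held 8.68 (portal) and 3.80 (central) Mup20 UMIs per 1000 at 24 h. The ratio was 1.99 at 24 h when barcodes down to 0% mitochondrial UMIs were let in. Mup3 was also higher in the portal bin, with log2 ratios between 0.63 (24 h) and 0.70 (8 h). Its 24 h ratio ran from 0.30 with the landmark-list score to 1.44 with barcodes down to 0% mitochondrial UMIs. Both of its bins were above background in every library.

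Mup17, Mup11 and Mup9 were highest in the central bin. In time order Mup17 was at 3092, 1845, 1155, 3645 and 135 CPM in the central bin. In the portal bin it was at 211, 135, 182, 218 and 111 CPM. The central level was therefore 14.6-fold the portal level in the fed library, 16.7-fold at 16 h and 1.22-fold at 24 h. The portal to central log2 ratios were −3.87 (−3.95 to −3.80) in the fed library, −3.78, −2.66 and −4.06 in the next 3, and −0.28 (−0.44 to −0.12) in the 24 h library. At 0 h most of the Mup17 UMIs lay in the central bin alone (17167 of 24285): the bin next to it held 275 CPM, and the middle bin 208. Against fed, Mup17 at 24 h was lower by a log2 ratio of −4.51 (−4.64 to −4.39) in the central bin and −0.92 (−1.05 to −0.80) in the portal bin. Barcodes with endothelial markers held 269 (232 to 310), 60.7 (16.5 to 155), 74.9 (24.3 to 175), 527 (411 to 665) and 110 (74.0 to 159) CPM of it in time order. The portal levels at 0, 4, 16 and 24 h were not above that background, so the portal ratio is not read as expression and the central to portal folds are no exact measure of the gradient. The central level of 135 CPM at 24 h also lay inside the background's interval, so the central ratio is no exact measure of the difference from fed.

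**Figure D2:**
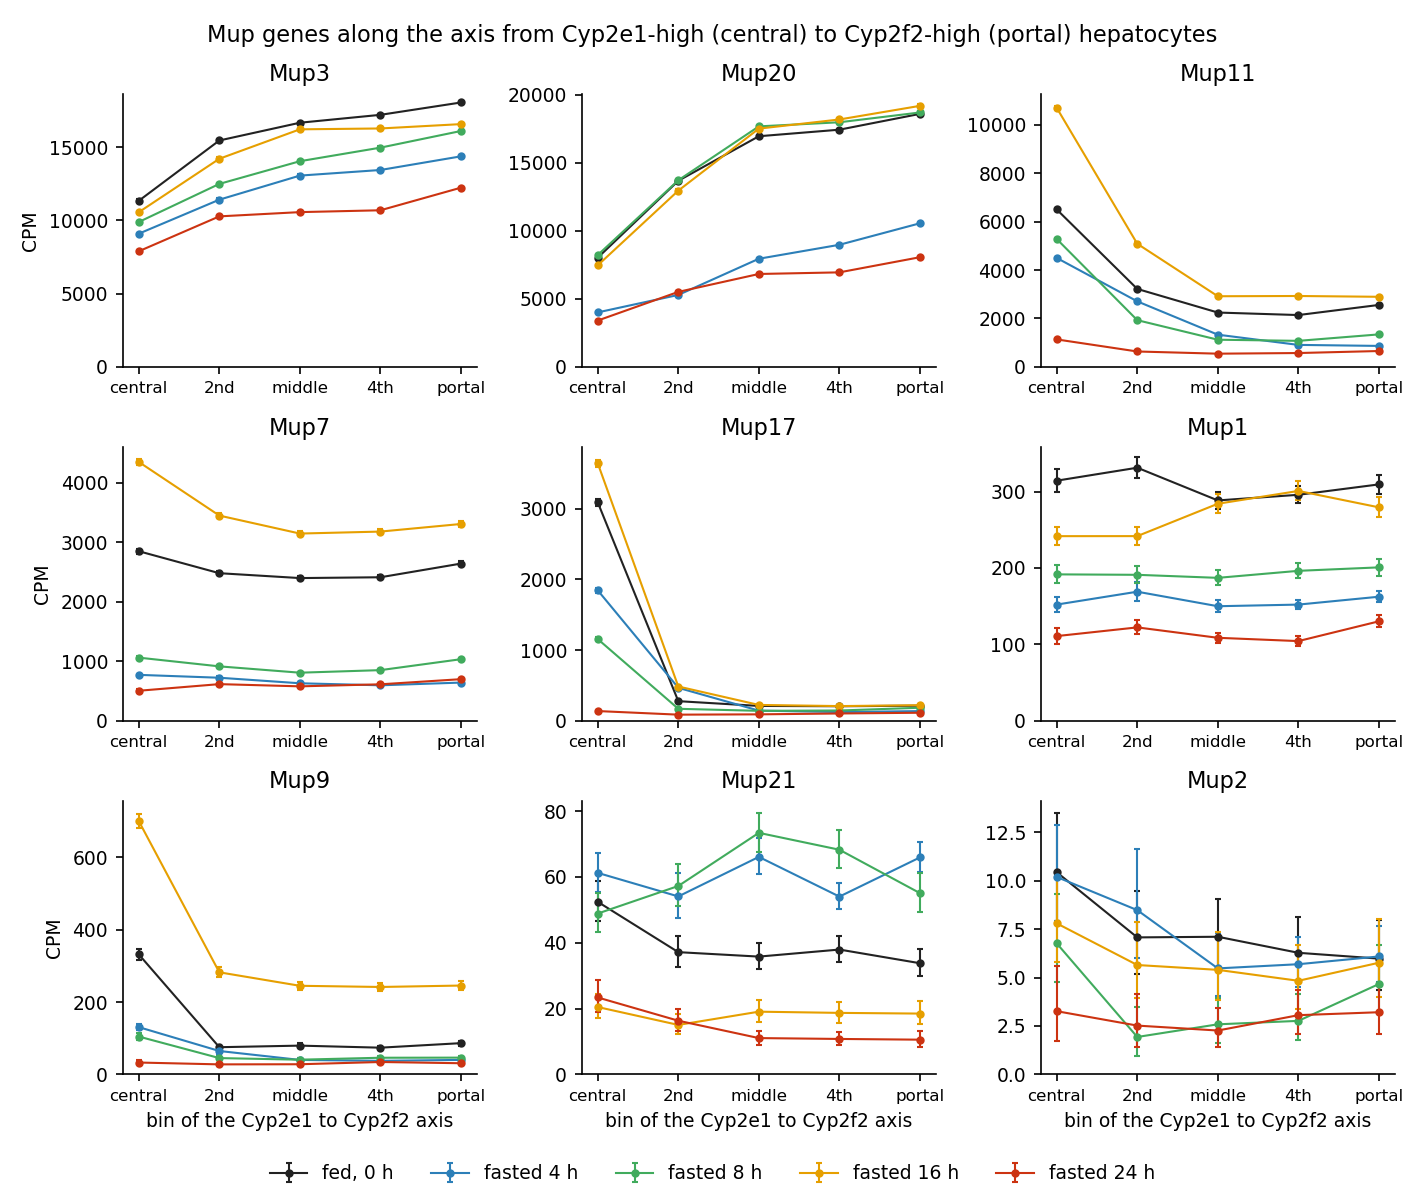
Level of each Mup gene (CPM, linear axis from 0, each panel with its own scale) in 5 equal bins of hepatocytes from the Cyp2e1-high central end to the Cyp2f2-high portal end, 1 line per library, with 95% Poisson intervals. Mup3 and Mup20 are higher at the portal than at the central end in all 5 libraries, and Mup11, Mup17 and Mup9 are highest in the central bin at 0, 4, 8 and 16 h.

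In the central bin Mup11 was at 6504, 4501, 5283, 10702 and 1135 CPM in time order, and in the portal bin at 2560, 867, 1343, 2896 and 656 CPM. Its log2 ratios were −1.35, −2.38, −1.98, −1.89 and −0.79, the last with an interval of −0.85 to −0.73. The lowest ratio was that of the 4 h library, whose central bin held 34.6 CPM of Cyp2f2 against 359 in the fed one. The bins were thus unlike, and the gradients are not ranked. With the landmark-list score the Mup11 ratios were −2.08, −3.09 and −2.85 at 0, 4 and 8 h. Mup9 was at 332, 131, 104, 700 and 32.6 CPM in the central bin and at 86.3, 39.9, 46.2, 246 and 30.7 CPM in the portal bin. Its log2 ratios were −1.94, −1.71, −1.18, −1.51 and −0.09, and the interval of the last (−0.40 to 0.23) includes 0. Its levels in both bins at 8 h and 24 h lay inside the interval of the endothelial-marker barcodes, so these ratios are not read as a gradient of expression. At 4 h and 16 h the portal level alone did (116 to 269 CPM at 16 h), so these ratios are no exact measure of it. The 8 h ratio of Mup9 was under 2-fold with 3 bins (−0.80) and in cells thinned and binned anew on the thinned counts (−0.87). Its 4 h ratio was −1.10 in cells thinned and binned anew. Thinned cells kept in the bins of their full counts held 0.0523 (portal) and 0.117 (central) Mup9 UMIs per 1000 at 8 h, and 0.0428 and 0.152 at 4 h. Mup7 differed little along the axis, with log2 ratios from −0.40 (16 h) to 0.47 (24 h). Its central level at 24 h (502 CPM) lay inside the interval of the endothelial-marker barcodes (355 to 518 CPM), and the sign depended on the setting at 0, 8 and 24 h (−0.33 to 1.28 at 24 h). Mup1 lay between −0.02 and 0.23, and its sign depended on the setting at 0, 4, 8 and 24 h (from −0.89 to 0.28 at 4 h). Mup21, with 82 to 768 UMIs per bin, lay between −1.15 (24 h) and 0.17 (8 h). Its sign depended on the setting at all times but 24 h, with −1.18 to 0.43 at 4 h and −0.21 to 0.74 at 8 h. Mup2, with 13 to 71 UMIs per bin, had ratios of −0.80 (−1.40 to −0.22), −0.74 (−1.24 to −0.24), −0.54, −0.44 and −0.02 in time order, and the intervals of the last 3 include 0. With at most 15% mitochondrial UMIs its 4 h ratio was 0.88, and its bins were not above background, so no direction is read for Mup2.

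**Figure D3:**
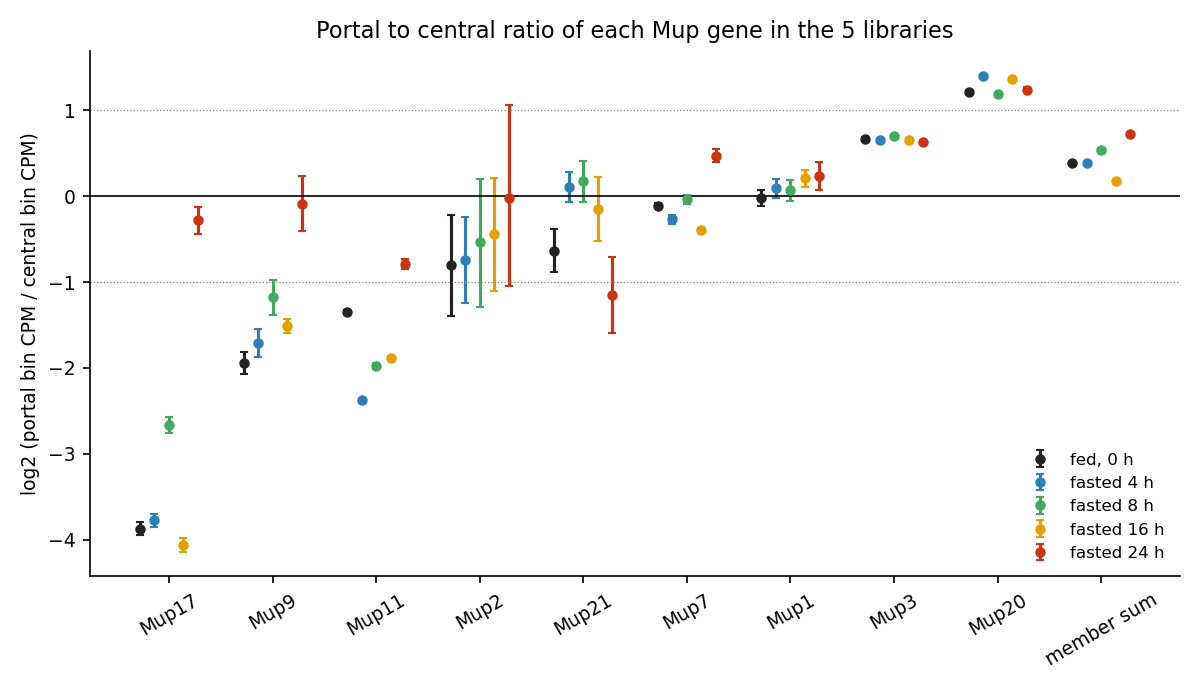
Log2 ratio of the portal bin to the central bin for each member and for their sum, 1 point per library, with 95% conditional binomial intervals; dotted lines mark a 2-fold difference. Mup17, Mup9 and Mup11 lie well below 0 at 0, 4, 8 and 16 h and nearer 0 at 24 h, and the 5 points of Mup20 lie above 1.

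Counted over members past 50 CPM in either bin, Mup9, Mup11 and Mup17 were at least 2-fold higher in the central bin at 0, 4, 8 and 16 h, 3 of 8, 8, 8 and 7 members. All genes gave 2.35%, 2.91%, 2.26% and 3.13% at these times. At 24 h it was 0 of 6 members, against 11% of 2755 genes. Mup20 was the 1 member at least 2-fold higher in the portal bin at each time. All genes gave 1.24%, 1.77%, 1.11%, 1.91% and 1.67% in time order. The rule that chose the members used this contrast for Mup17, so nothing is read from these counts.

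The opposite gradients partly cancelled in the sum. In time order the member sum was 42506, 26853, 37680, 42742 and 21941 CPM in the portal bin and 32523, 20573, 25968, 37696 and 13245 CPM in the central bin. Its log2 ratio was 0.39, 0.38, 0.54, 0.18 and 0.73 in time order. For the 7 members other than Mup3 and Mup20, the sum had the other sign, −1.17, −1.96, −1.45, −1.50 and −0.25 in time order, while Mup3 and Mup20 together stayed between 0.85 and 0.99. In the central bin of the fed library Mup11 made up 20.0% of the family and Mup17 9.51%, against 8.57% and 1.02% at 24 h. Mup3 made up 34.9% of that bin at 0 h and 59.6% at 24 h.

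**Figure D4:**
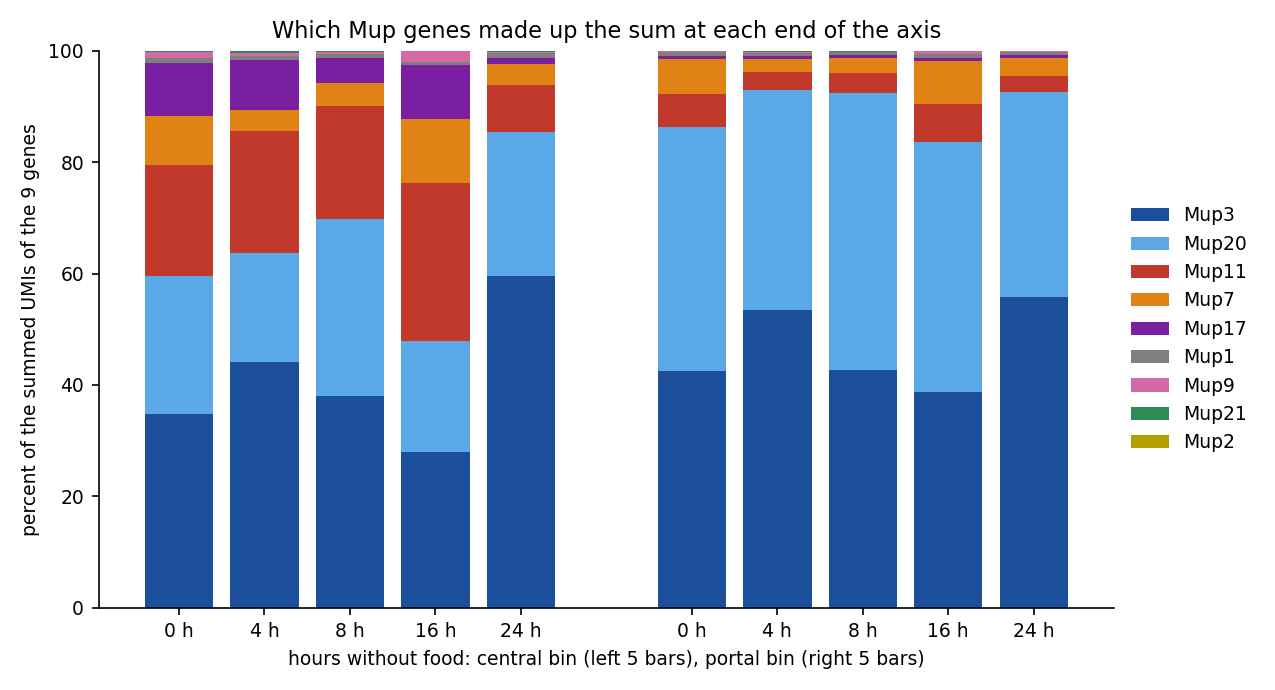
Percent of the summed UMIs of the 9 genes that each gene held in the central bin (left 5 bars) and the portal bin (right 5 bars) of each library. Mup11, Mup7 and Mup17 are visible parts of the central bars at 0, 4, 8 and 16 h, and at 24 h Mup3 holds 59.6% of the central bar.

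The bins themselves were not alike between libraries. The median central cell had 5892, 8395, 5648, 8850 and 729 CPM of Cyp2e1 in time order. At 24 h, 60.8% of all hepatocytes had no Cyp2e1 UMI, against 37.6% at 0 h. The central cells at 24 h also had fewer UMIs than the portal cells (medians of 2834.5 and 10159) and a lower mitochondrial share (9.06% and 19.5%), where the fed bins had 2913.5 and 5334 UMIs and 10.6% and 12.6%. The part of these differences in the 24 h ratios was not tested. Over 15 other settings the Mup17 ratio at 24 h lay between −0.75 and 0.37 and the Mup11 ratio between −1.95 and 0.12, so that their sign at 24 h depended on the setting. The Mup17 ratio was above 0 when barcodes down to 0% mitochondrial UMIs were let in (0.37) and as a mean of per-cell CPM (0.19), and the Mup11 ratio in the first of these (0.12). At the other times the Mup17 ratio lay between −4.83 and −2.24.

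Cells were therefore also grouped by their own Cyp2e1 level, a comparison added after the results had been seen. In cells with 10000 CPM or more of Cyp2e1, which numbered 407, 380, 69, 730 and 60 in time order, Mup17 was at 5829, 2828, 3657, 6026 and 671 CPM, the last with an interval of 592 to 756. In cells without a Cyp2e1 UMI it was at 204, 139, 153, 212 and 99.3 CPM. The level in cells without Cyp2e1 was not above that of the endothelial-marker barcodes in any of the 5 libraries, so the ratio between these groups of cells is not compared between times. In the Cyp2e1-high cells Mup17 was above that background in all 5. The 24 h value rests on 60 cells: in the next group, with 5000 to 10000 CPM of Cyp2e1, Mup17 was at 146 (121 to 175) CPM at 24 h in 113 cells and at 2704 CPM at 0 h in 493 cells. In the Cyp2e1-high cells it was 8.69-fold lower than fed at 24 h. Median UMI counts of the Cyp2e1-high cells were 4416 at 0 h and 8883 at 24 h.

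Mup11 was also higher in Cyp2e1-high cells. Its level in Cyp2e1-high cells was 3.53-fold, 6.25-fold, 6.69-fold and 4.04-fold that in cells without Cyp2e1 at 0, 4, 8 and 16 h. At 24 h it was at 2657 CPM in the Cyp2e1-high cells and at 569 in cells without Cyp2e1, the latter inside the interval of the endothelial-marker barcodes (400 to 571 CPM), so no exact fold is read. In the Cyp2e1-high cells it was at 8317 CPM at 0 h, and the 24 h level was 3.13-fold lower. Mup9 was 8.47-fold higher in the Cyp2e1-high cells at 0 h. At 24 h it was at 60.5 CPM in them and at 30.7 in cells without Cyp2e1, the latter at the level of the endothelial-marker barcodes, so no gradient is read from that ratio. Mup20 ran the other way at both times, with 7771 CPM in Cyp2e1-high cells and 18221 in cells without Cyp2e1 at 0 h, and 3399 and 7325 at 24 h. The 3399 CPM lay below the 4522 (4268 to 4786) CPM of the endothelial-marker barcodes at 24 h, so the size of that difference is not read as expression.

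**Figure D5:**
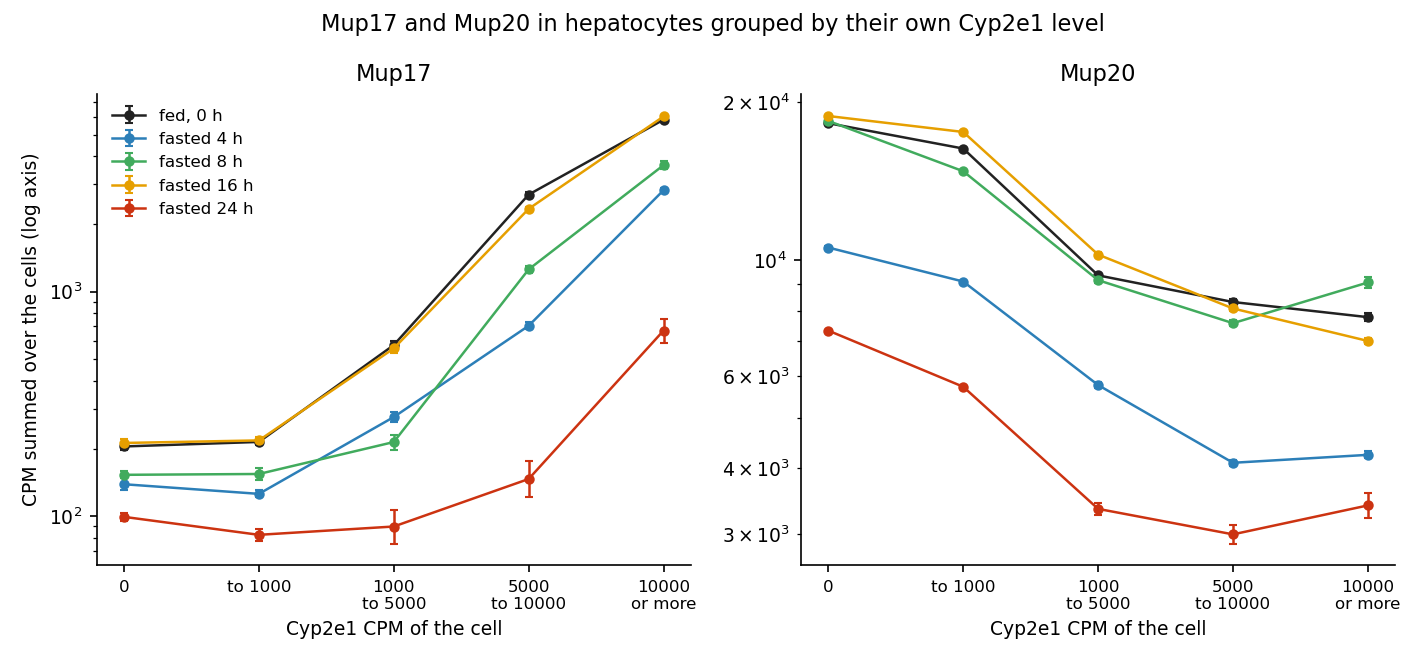
Mup17 (left) and Mup20 (right) in hepatocytes grouped by their own Cyp2e1 level (horizontal axis, CPM of the cell), as CPM summed over the cells of a group (log axis), 1 line per library, with 95% Poisson intervals. Mup17 is higher in Cyp2e1-high cells in all 5 libraries, and its 24 h value of 671 CPM is the lowest of the 5 there.

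The share of cells with a Mup17 UMI was compared after thinning each cell to 1000 nuclear-encoded UMIs. In time order it was 28.2%, 24.8%, 20.3%, 31.9% and 8.96% (8.15 to 9.82) of hepatocytes, against 64.8%, 70.2%, 78.8%, 61.0% and 46.1% before thinning. Thinning kept 7826, 4563, 2691, 9003 and 4576 cells. With cells kept in the bins of their full counts, the thinned shares of the central bin were 61.1%, 50.9%, 39.8%, 69.8% and 7.31%, and those of the portal bin 19.7%, 14.7%, 17.2%, 19.3% and 10.3%. Among barcodes with endothelial markers, 18.0% (13.9 to 22.7) of 311 at 0 h, 21.2% of 66 at 16 h and 2.13% (0.0538 to 11.3) of 47 at 24 h had a Mup17 UMI, with median UMI counts of 1794, 1285.5 and 3823 per barcode. The portal shares at 0 h and 16 h were thus at the level of that background and are not read as expression, and the 24 h shares of both bins lay inside the interval of its background. Mup20 UMIs were found in 99.3% of thinned hepatocytes at 0 h and 94.3% at 24 h, but also in 84.6% and 72.3% of the barcodes with endothelial markers, at 3.89 and 3.15 UMIs per 1000 against 15.3 and 6.79 in hepatocytes.

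Over the 25 values of 5 libraries and 5 bins, Mup20 and Mup3 varied together (Pearson r of log2(CPM + 1) of 0.93), as did Mup11 with Mup9 (0.89) and with Mup17 (0.88). Between those sets r was low, −0.22 for Mup17 with Mup20 and 0.06 for Mup11 with Mup3. The bins of a library share depth and cells of 1 sample, and near-identical genes may share reads, so these are descriptions. Among 2674 genes with a mean of at least 50 CPM, those most like the member sum were Kyat1 (r = 0.93), Clu (0.93), Alkbh5 (0.93), Ddx3x (0.92) and Rab6a (0.91), and the most opposed were Mrpl18 (−0.98) and Mpc1 (−0.98), the mitochondrial pyruvate carrier subunit. Among the genes most like Mup17 were Acsm1 (0.93), Mgst1 (0.93), Cyp2c67 (0.92) and Gulo (0.92), and most like Mup20 was Atp1b1 (0.98); these 2 searches were added after the results had been seen.

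Genes known to share the family's hormonal control were read from lists. Of the 11 male-biased liver genes, 9 were past the 50 CPM minimum at 24 h, of which 8 were at least 2-fold lower than fed and 0 higher, with a median log2 ratio of −2.25, where 10.6% of all genes were lower. Slco1a1, an organic anion transporter, was at 283, 172, 291, 290 and 31.2 CPM in time order, and Serpina1e, a protease inhibitor, at 4107, 4644, 10519, 5414 and 1078 CPM. At 4 h and 16 h fewer of the list were past 2-fold: 2 lower (Cyp2u1 and Selenbp2) and 1 higher (Elovl3) of 10 at 4 h, where 5.97% of all genes were lower and 5.73% higher, and 1 lower and 1 higher of 11 at 16 h, against 4.04% and 3.31%. At 8 h 3 were higher (Elovl3, Selenbp2 and Serpina1e) and 1 lower of 10, against 7.95% and 11.8%. Of 12 female-biased genes, 0 passed the minimum at any time. Below it, Cyp2b9, a cytochrome P450, had 5 UMIs (0.132 CPM) at 0 h and 515 (13.7 CPM) at 24 h, a log2 ratio of 6.69 (5.46 to 8.32), and was singled out after its values had been seen. The other genes of that list are not described here, so nothing is read from Cyp2b9 about the list.

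In the growth hormone pathway 4 or 5 of 8 genes passed the minimum. Cish, a feedback inhibitor induced by growth hormone, was at 61.3, 31.5, 13.2, 13.5 and 18.7 CPM, at least 2-fold lower than fed at 8, 16 and 24 h. Socs2, another feedback inhibitor and STAT5 target, was at 12.5, 54.3, 59.6, 21.4 and 19.2 CPM, higher than fed by log2 2.12 at 4 h and 2.26 at 8 h. Igf1, a secreted growth factor that is also a target, was at 1288 CPM at 0 h and 1621 at 24 h, and the receptor gene Ghr at 644 and 517, so neither was past 2-fold. These genes did not share one time course with each other or with Mup17. Of 9 liver transcription factors, 5 passed the minimum, and Onecut1 was lower at 16 h (log2 −2.07) and 24 h (−1.09), Hnf4a higher at 8 h (1.04). The last 2 values were close to the 2-fold limit. Of all genes, 11.8%, 4.04% and 10.6% were lower at 8, 16 and 24 h, and 5.73% and 7.95% higher at 4 and 8 h. With so few genes past the minimum, nothing is read from the counts of either list.

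Other lipocalins, the fold family of the Mup proteins, differed among themselves. Of 10, 5 passed the minimum at 24 h, with 1 lower (Orm2, an acute phase protein, 74.5 CPM at 0 h and 21.7 at 24 h) and 0 higher. Rbp4, the retinol carrier, was higher than fed at 24 h by log2 0.98 (4349 and 8588 CPM), and Lcn2, an acute phase protein that binds bacterial siderophores, was at 287 CPM at 16 h against 10.7 at 0 h. Of the 14 central landmark genes, 10 passed the minimum and 7 were at least 2-fold lower at 24 h (Cyp1a2, Cyp2c29, Cyp2e1, Glul, Gulo, Oat and Rgn), with a median of −1.75. Of the 12 portal landmarks, 0 were lower and 3 higher (Hal, Pigr and Sds). Of all genes, 10.6% were lower and 6.68% higher at 24 h. The low level of Mup17 and Mup11 in the 24 h library thus stood beside low central landmarks, and that of Mup20, a portal-high member, beside portal landmarks that were not lower; the part of the landmarks in either was not tested.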

How the data were processed

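The authors deposited unnormalized UMI counts per gene and barcode for the 5 libraries, made with Cell Ranger 6.0.1 on mm10, per the submitters' processing notes; an annotation version is not stated there. Each cell suspension went through the 10x Genomics 3′ kit, per the labels' protocols. The deposited table has 10000 barcodes per library and no cell type column, so hepatocytes were selected by the limits in the report; doublets were not called and remain. The members and lists were chosen with earlier results of these data known. Counts were summed over cells and divided by nuclear-encoded UMIs (pandas 2.3.3 and scipy 1.17.1 in python 3.11.15, plots in matplotlib 3.10.9). Cells were ordered by log2((Cyp2f2 + 1)/(Cyp2e1 + 1)) in UMIs per 10000, ties at random. With 1 library per group there was no test. The call rule was checked on simulated counts. Named genes were the members, the other Mup features, members of the lists where their counts are given, and the genes most like the member sum (5 highest and 2 lowest); those most like Mup17 and Mup20 were added after the results had been seen. Alternatives covered scaling, cell filters, axis, thinning, free RNA and the CPM minimum. Gene models came from GENCODE M21 and start sites from RefSeq. Coding sequences were compared over the transcript of each gene with the coding length nearest to 540 bases, and 3′ ends over its longest coding transcript. Protein sequences were not used here. One gene among those most like Mup17 is not reported here.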

Additional observations from a re-analysis of the deposited data

Results flagged for a closer look

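Mup7 had opposite signs of its portal to central log2 ratio in the fed library (−0.11, −0.14 to −0.08) and the 24 h library (0.47, 0.40 to 0.55); the difference was not tested, since each is 1 library. The signs depended on the setting: at 0 h the ratio ran from −0.43 to 0.08 and at 24 h from −0.33 to 1.28, with the landmark-list score below 0 at both times. The central level at 24 h (502 CPM) lay inside the interval of Mup7 in barcodes with endothelial markers of that library (355 to 518 CPM), so the 24 h ratio is no exact measure of a gradient. Nearly every window at the 3′ end of Mup7 also occurs in another Mup gene or pseudogene, and the median depth of the central and portal cells at 24 h was 2834.5 and 10159 UMIs; the part of either was not tested.

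Barcodes with under 1% mitochondrial UMIs were kept out of the hepatocytes and held Mup UMIs of their own. The member sum in them was 12547 CPM at 0 h (1657 barcodes), 14133 at 8 h (671 barcodes) and 17688 at 16 h (194 barcodes), the last 2 above the fed library, and 5857 at 4 h (4789 barcodes) and 4514 at 24 h (4414 barcodes). All 5 values were below those of the hepatocytes of the same library. The members were not lowered alike: at 0 h Mup20 was at 3674 CPM in these barcodes against 15541 in hepatocytes, and Mup17 at 608 against 643.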

How the results depend on the processing

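The direction of every member value that was at least 2-fold was kept under all alternatives run, and 440 of 478 such values stayed at least 2-fold; the cause of the others was not tested. Of 112 recomputed counts of members, 91 equalled the main count. The log2 TMM factors were −0.16, −0.21, −0.08 and −0.18 for the fasted libraries in time order, which raises every ratio to fed by that size. Depth limits Mup2 and Mup21. No paired analysis was possible because each group is 1 library. In the values that follow, level is the log2 ratio of the member sum to fed and gradient its portal to central log2 ratio; values inside the counting interval, and counts within 1.5 times the main count, are left out. The count of members at least 2-fold lower than fed ran from 1 to 4 at 4 h, from 1 to 4 at 8 h and from 6 to 8 at 24 h. With TMM factors: level −0.52 (4 h), −0.0070 (8 h), 0.14 (16 h), −0.86 (24 h), gradient 0.52 (0 h), 0.45 (4 h), 0.62 (8 h), 0.31 (16 h), 0.68 (24 h), members past 2-fold 1 lower (4 h), 1 lower (8 h). With median-of-ratios size factors: level −0.53 (4 h), −0.023 (8 h), 0.099 (16 h), −0.89 (24 h), gradient 0.52 (0 h), 0.45 (4 h), 0.63 (8 h), 0.30 (16 h), 0.70 (24 h), members past 2-fold 1 lower (4 h), 1 lower (8 h). With all UMIs in the denominator: level −0.81 (4 h), −0.18 (8 h), 0.027 (16 h), −1.11 (24 h), gradient 0.36 (0 h), 0.36 (4 h), 0.17 (16 h), 0.64 (24 h), members past 2-fold 4 lower (4 h). With denominator without genes over 1% of UMIs: level −0.75 (4 h), −0.26 (8 h), 0.047 (16 h), −1.06 (24 h), gradient 0.50 (0 h), 0.47 (4 h), 0.61 (8 h), 0.31 (16 h), 0.82 (24 h), members past 2-fold 4 lower (4 h). With 0 to 30% mitochondrial UMIs: level −0.82 (4 h), −0.16 (8 h), 0.14 (16 h), −1.35 (24 h), gradient 0.62 (0 h), 0.60 (4 h), 0.61 (8 h), 0.19 (16 h), 1.52 (24 h), members past 2-fold 4 lower (4 h). With at most 15% mitochondrial UMIs: level −0.92 (4 h), −0.18 (8 h), 0.053 (16 h), −1.22 (24 h), gradient 0.40 (0 h), 0.20 (4 h), 0.12 (16 h), 0.77 (24 h), members past 2-fold 4 lower (4 h), 1 higher (4 h). With at least 3000 UMIs: level −0.69 (4 h), −0.23 (8 h), 0.027 (16 h), gradient 0.35 (0 h), 0.44 (4 h), 0.61 (24 h). Without barcodes carrying markers of another cell type: level −0.70 (4 h), −0.23 (8 h), 0.046 (16 h), −1.04 (24 h), gradient 0.34 (0 h), 0.70 (24 h). Without the 25% of barcodes with fewest genes for their UMIs: level −0.15 (8 h), −1.13 (24 h), gradient 0.38 (0 h), 0.36 (4 h), 0.11 (16 h), 0.69 (24 h), members past 2-fold 1 lower (4 h), 1 lower (8 h). With mean of per-cell CPM: level −0.60 (4 h), −0.17 (8 h), 0.080 (16 h), −0.96 (24 h), gradient 0.45 (0 h), 0.39 (4 h), 0.19 (16 h), 0.76 (24 h). With 10% free RNA taken out: level −0.67 (4 h), −0.23 (8 h), 0.039 (16 h), −1.02 (24 h), gradient 0.40 (0 h), 0.39 (4 h), 0.56 (8 h), 0.19 (16 h), 0.75 (24 h). The free RNA profile of that setting came from barcodes with under 1% mitochondrial UMIs, not from those with endothelial markers. With 3 bins: gradient 0.34 (0 h), 0.34 (4 h), 0.44 (8 h), 0.46 (24 h). With landmark-list score: gradient 0.36 (0 h), 0.40 (4 h), 0.63 (8 h), 0.19 (16 h), 0.50 (24 h). With cells thinned to 1000 nuclear UMIs and binned anew on the thinned counts: gradient 0.38 (0 h), 0.30 (4 h), 0.43 (8 h), 0.47 (24 h). With 10 CPM minimum: members past 2-fold 1 lower (16 h). With no minimum: members past 2-fold 1 lower (16 h). At 24 h these minimums gave 7 and 8 lower in place of 6, and no minimum gave 4 in place of 3 at 8 h. With all 22 Mup features: level −0.70 (4 h), −0.24 (8 h), 0.065 (16 h), −1.05 (24 h), gradient 0.37 (0 h), 0.37 (4 h), 0.16 (16 h). The alternatives on barcodes shared between libraries and on all 22 Mup features were chosen after seeing the data.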
